A study of Mus musculus with 11 samples.

Results

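The 4 Hox clusters were examined in lists of H3K27me3 peaks from the embryonic mouse forebrain. The members were 38 Hox genes listed by symbol, 10 in HoxA, 10 in HoxB, 9 in HoxC and 9 in HoxD, out of 21755 protein-coding genes of chromosomes 1 to 19 and X. Values came from peaks lying between the first and the last listed gene of a cluster with 20 kb on either side, here called the span, and from a 4 kb window reaching 2 kb to either side of each gene's annotated 5′ end. The study profiled H3K27me3 by CUT&Tag, an assay in which an antibody directs a transposase to chromatin bearing a histone mark. Tissue was the medial (MGE), caudal (CGE) and lateral (LGE) ganglionic eminences and the somatosensory cortex (CTX) of C57BL/6J embryos, with no other genotype and no treatment. The 11 samples comprised 2 of MGE and 3 each of CGE, LGE and CTX, and in the last 3 regions 2 samples share replicate number 2, so that every region has 2 numbered replicates, which the study describes as biological. The study's methods give embryonic day 12.5 for this assay, while the labels name days 12.5 and 14.5 without assigning either to a sample, and they also mention pooling of nuclei from all regions although every sample bears 1 region's name. Each region is represented by 1 peak list called on its merged samples, so the values below carry no error from replicates and no p-value is given. The lists hold no read counts. The sequencing depths in the study's methods, summed over the replicates of a region, are lowest for MGE, followed by LGE, CTX and CGE.

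Hox genes encode homeodomain transcription factors that specify position along the body axis. Within a cluster the genes lie in the order of their domains along that axis, with low-numbered (anterior) paralogues at the 3′ end and high-numbered (posterior) ones at the 5′ end. The forebrain lies anterior to the normal domains of Hox expression. Polycomb repressive complexes keep silent Hox genes marked with H3K27me3, and the clusters are a textbook target of this system.

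The clusters were far more densely covered than the genome as a whole. Together the spans amounted to 645 kb, or 0.0245% of the chromosomes analysed, and held 102 peaks in MGE, 99 in CGE and 105 in LGE, and 102 in CTX. These peaks covered 50.2% of the spans in MGE, 47.4% in CGE and 44.1% in LGE, and 46.8% in CTX, whereas the full lists covered between 0.931% and 1.25% of the genome. As a share of all covered bases the spans supplied 1.32% in MGE, 0.928% in CGE and 1.08% in LGE, and 0.967% in CTX. MGE thus had the highest span coverage although its list was the smallest of the 4 (15384 peaks and 24.5 Mb, against up to 19196 peaks and 32.9 Mb in CGE). The order MGE, CGE, CTX, LGE was the same when the lists were cut to equal numbers of peaks and to equal covered bases.

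HoxA, on chromosome 6 (chr6:52162417-52260880 from Hoxa2 to Hoxa13, mm10), was the most covered cluster, with 60.4% of its span under peaks in MGE, 56.1% in CGE and 54.0% in LGE, and 56.1% in CTX. HoxC (chr15:102921103-103036852) followed with 52.2%, 48.7%, 46.2% and 49.1% in the same order. The HoxD span (chr2:74668310-74765142 without its flanks) was covered to 46.9%, 45.8%, 41.6% and 44.7%. HoxB (chr11:96194316-96368256) was lowest in every list, at 44.3%, 41.8%, 37.7% and 40.4%. The order of the clusters was therefore the same in all 4 lists, and within each cluster MGE was highest and LGE lowest. With 50 kb flanks in place of 20 kb, however, HoxD was the lowest on average over the lists (32.4% against 35.5% for HoxB). HoxB is also the longest cluster. Its longest interval, the 77.1 kb between Hoxb13 and Hoxb9, was covered to only 25.6% in MGE, 28.2% in CGE and 22.4% in LGE, and 24.5% in CTX.

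**Figure D1:**
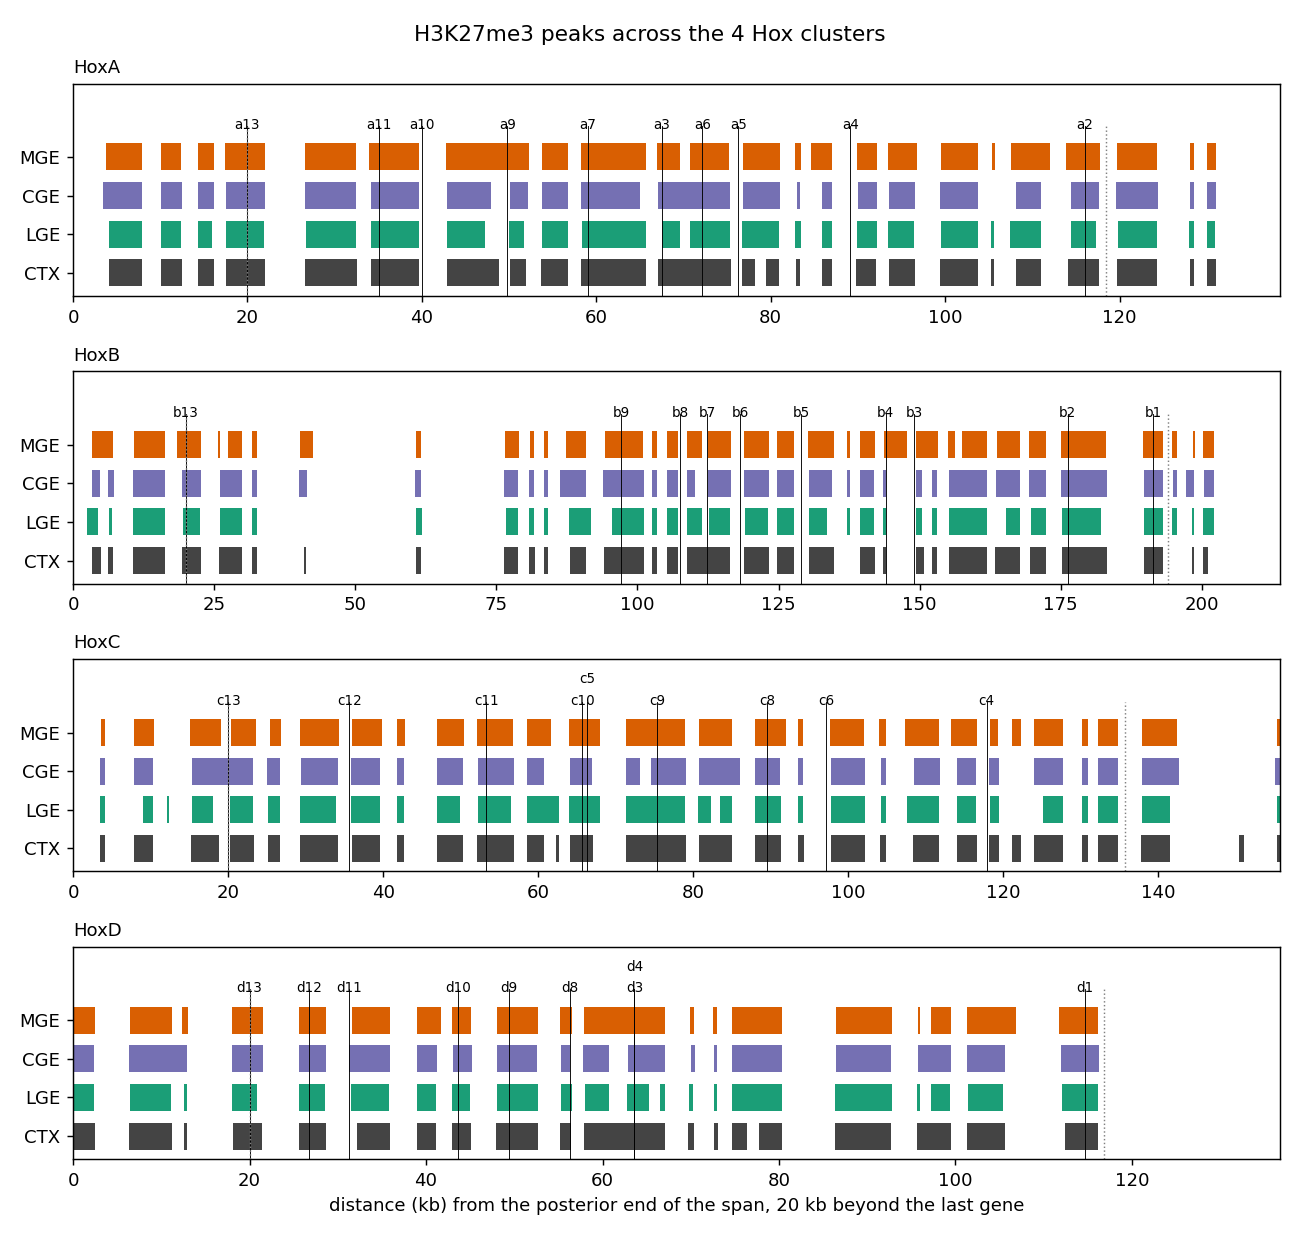
Peaks of the MGE, CGE, LGE and CTX lists (coloured bars, 1 row per list) across the 4 Hox spans, with the distance in kb from the posterior end of each span on the x axis, thin vertical lines at the annotated 5′ ends of the listed genes (a13 is Hoxa13 and so on) and dotted lines at the first and last base of the cluster. Peaks and the gaps between them recur at the same places in the 4 lists, the interval between Hoxb13 and Hoxb9 is sparsely covered, and only MGE has a long peak between Hoxb4 and Hoxb3.

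At the level of single genes, 25 of the 38 windows were covered to at least 50% in all 4 lists, here called marked. Over all protein-coding genes the same call was made for 7.54%. By list, 30 Hox windows were marked in MGE, 26 in CGE and 26 in LGE, and 28 in CTX, against 9.76%, 12.3%, 10.2% and 10.9% of all genes. No Hox window was free of peaks, while 60.9% of all genes had none of their window under a peak in any of the lists. The median Hox window was covered to 77.0% in MGE, 66.9% in CGE and 63.9% in LGE, and 68.0% in CTX, and the median over all genes was 0% in each. Among the 1641 genes marked in all 4 lists the medians were 67.2%, 70.7%, 66.9% and 68.8%. Among genes of neural progenitors looked at as a check of the tissue, the windows of Sox2 and Nes were covered to between 61.6% and 66.0% and between 50.5% and 64.5%. The expectation had been that the mark is scarce at genes in use in all 4 regions. Both genes were instead marked in all 4 lists, so a marked window does not by itself show that a gene is silent.

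Of the 8 genes at the ends of the clusters, 5 were covered to above 70% in every list. Hoxa13, whose product patterns the limb and the hind end of the body, was covered to 100% in MGE, CGE and CTX and 97.0% in LGE. Hoxd13, its paralogue with a role in digit formation, was covered to 88.2% in MGE, 88.2% in CGE and 70.0% in LGE, and 82.8% in CTX. At the anterior ends Hoxd1 had 86.9% in MGE, 88.8% in CGE and 86.4% in LGE, and 87.2% in CTX. LGE was the lowest list at all 3 of these genes. Hoxb1, which acts in rhombomere 4 of the hindbrain, was covered to 88.0%, 83.4%, 85.5% and 85.6%. For Hoxa2, a hindbrain and neural crest gene, the values were 92.5% in MGE, 81.5% in CGE and 72.1% in LGE, and 87.0% in CTX. The other 3 end genes were under 70% in at least 1 list, with Hoxb13 at 64.2% in its lowest list, Hoxc13 at 44.0% in its lowest list, and Hoxc4 between 46.0% and 49.5% and so marked in none. The peak over the 5′ end of Hoxb1 had the smallest q-value of all Hox peaks in MGE, CGE and CTX, with a −log10 q of 48.8 in MGE, 100.1 in CGE and 92.3 in CTX, and the second smallest in LGE, at 81.5. A further 15 genes were marked in all 4 lists with lists less than 25 points apart. They were Hoxa3, Hoxa5, Hoxa6, Hoxa7, Hoxa11, Hoxb2, Hoxb8, Hoxb9, Hoxc8, Hoxc10, Hoxc11, Hoxc12, Hoxd9, Hoxd10 and Hoxd12, with window coverage between 51.7% and 100%.

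**Figure D2:**
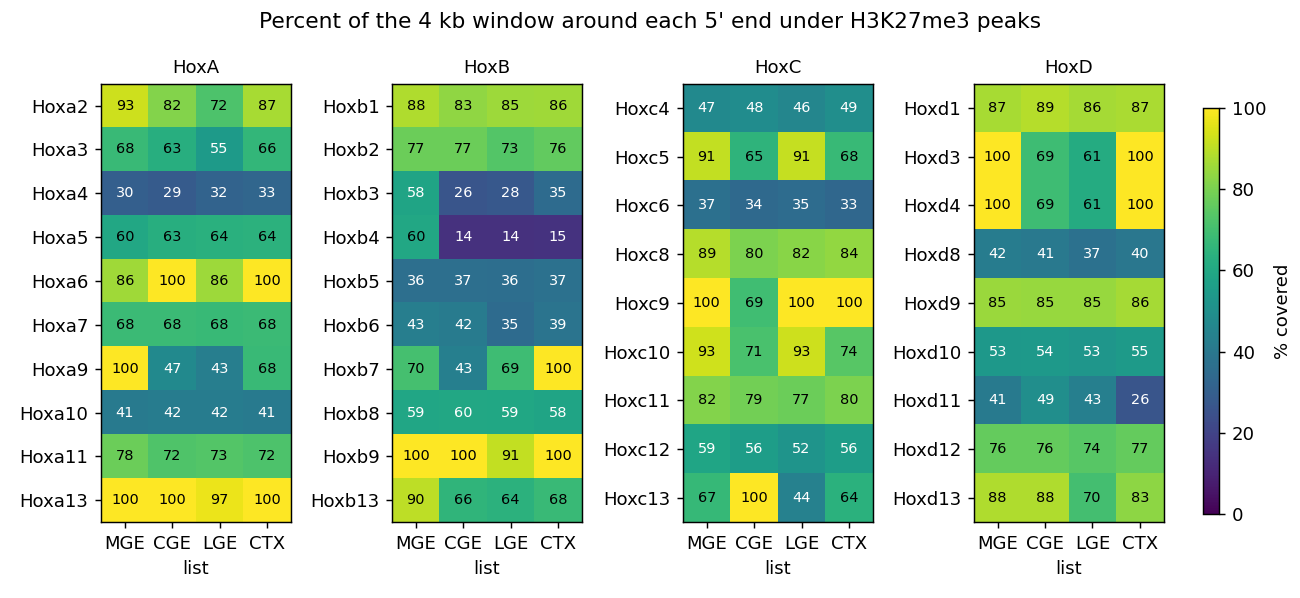
Percent of the 4 kb window under peaks for each of the 38 Hox genes (rows, by cluster and paralogue number) in each of the 4 lists (columns), on a colour scale from 0 to 100%. Most rows have like values in the 4 lists, and the rows of Hoxa9, Hoxb3, Hoxb4, Hoxb7, Hoxc13, Hoxd3 and Hoxd4 change most between columns.

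In 8 genes the window stayed under 50% in every list, against 85.4% of all genes that were marked in no list. Hoxa4 was covered to 30.2% in MGE, 28.7% in CGE and 31.7% in LGE, and 32.9% in CTX. Hoxb5 had 36.4%, 36.6%, 36.3% and 37.2% in the same order, and Hoxc6 37.0%, 34.2%, 35.3% and 33.2%. All 3 belong to the anterior or central part of their cluster, where the genes pattern the hindbrain, neck and trunk. Hoxb6 was covered to 42.9% in MGE, 41.6% in CGE and 35.0% in LGE, and 38.6% in CTX. In Hoxd8 the values were 42.0%, 40.5%, 37.2% and 39.7%, and in Hoxc4 they were 47.3%, 48.5%, 46.0% and 49.5%. Hoxa10, a posterior gene with a role in the uterus and lumbar vertebrae, had 40.6%, 41.9%, 41.9% and 40.6%. Hoxd11, needed for the forearm, was the most variable of the 8, with 41.05% in MGE, 49.5% in CGE and 43.1% in LGE, and 26.2% in CTX. The annotated 5′ ends of Hox genes can lie far from the coding part, for example in Hoxa3, whose outermost start lies 29.5 kb before the start nearest the start codon. When the window was placed on the coding transcript whose start lies nearest its start codon, 30 of the 38 genes were marked in all 4 lists (6.67% of all genes), and Hoxa3, Hoxa4 and Hoxb5 were the 3 genes marked in none. Over the 2 kb upstream alone 16 genes were marked in all 4 lists (4.72% of all genes).

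The 5′ end base itself was often outside the peaks. It lay under a peak in all 4 lists in 23 of the 38 genes (14.5% of all genes) and under no peak in any list in 11 (71.2% of all genes). Among the 25 marked Hox genes 84.0% had the base covered in all 4 lists, compared with 97.1% of the 1641 marked genes, and 3 marked Hox genes, or 12%, had it covered in none, compared with 0.488%. With the start nearest the start codon these shares were 83.3% of 30 genes against 96.8%, and 13.3% against 0.896%. Hoxa5, which patterns the neck and lung, is an example of a marked gene of this kind. Its window was covered to 60.05% in MGE, 62.7% in CGE and 63.5% in LGE, and 64.1% in CTX, yet its 5′ end fell into a stretch of 1328 bases that had no peak in any list.

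Promoter sequence was read from RefSeq (GRCm38.p6), which gave 24 sequences for 22 of the 38 genes. The 250 bases before the start are shown for 3 genes, with CpG dinucleotides in capitals, because they set covered starts beside uncovered ones. At Hoxa13 (chr6:52260881-52261130, minus strand) all 250 bases were under peaks in all 4 lists and 35 CpGs were present. At Hoxa5 (chr6:52204588-52204837, minus strand) none of the bases was covered in any list, although 28 CpGs were present. Hoxd11 has 2 starts. The outer one (chr2:74679308-74679557, plus strand) was uncovered in all lists and held 2 CpGs, and the inner one (chr2:74682073-74682322, plus strand) was fully covered in all lists and held 20.
Hoxa13: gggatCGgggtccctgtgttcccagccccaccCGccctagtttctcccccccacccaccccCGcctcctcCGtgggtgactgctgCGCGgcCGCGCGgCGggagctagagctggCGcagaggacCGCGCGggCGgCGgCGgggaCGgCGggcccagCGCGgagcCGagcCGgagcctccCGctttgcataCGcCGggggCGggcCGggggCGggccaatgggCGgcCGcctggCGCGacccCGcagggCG
Hoxa5: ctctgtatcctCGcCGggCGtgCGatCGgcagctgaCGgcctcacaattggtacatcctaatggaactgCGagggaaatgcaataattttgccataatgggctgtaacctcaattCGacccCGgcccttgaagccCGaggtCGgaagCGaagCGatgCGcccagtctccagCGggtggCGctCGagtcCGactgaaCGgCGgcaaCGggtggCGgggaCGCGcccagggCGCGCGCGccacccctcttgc
Hoxd11 outer start: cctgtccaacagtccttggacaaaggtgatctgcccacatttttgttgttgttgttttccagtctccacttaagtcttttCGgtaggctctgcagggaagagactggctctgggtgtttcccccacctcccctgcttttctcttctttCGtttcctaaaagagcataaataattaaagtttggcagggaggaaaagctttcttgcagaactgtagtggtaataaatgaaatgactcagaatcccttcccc
Hoxd11 inner start: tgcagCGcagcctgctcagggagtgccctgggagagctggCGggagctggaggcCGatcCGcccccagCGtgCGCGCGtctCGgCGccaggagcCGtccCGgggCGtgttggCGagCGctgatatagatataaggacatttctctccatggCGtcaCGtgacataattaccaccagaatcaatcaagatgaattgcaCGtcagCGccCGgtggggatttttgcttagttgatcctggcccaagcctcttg
CpG number alone therefore did not separate the covered from the uncovered starts in these examples. Hoxa5 was the richest of the uncovered starts. The others held 3 CpGs at Hoxd4, 3 at Hoxa9, 7 at the outer start of Hoxa10 and 12 at Hoxb8. Covered starts held from 6, at Hoxd8 and Hoxa2, to 35 CpGs. The motif TGATTNAT, at which HOX and PBX proteins can bind together, was searched on both strands (ATNAATCA on the other) in the 300-base promoter sequences. It was present in 2 of the 24, one of Hoxd11 and that of Hoxa2, or 8.33%, and in 3.22% of the 32851 promoter sequences of all genes.

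Across the 4 kb windows the Hox genes held a median of 138 CpGs, compared with 87 over all genes and 137 over the genes marked in all 4 lists. The 13 Hox genes not marked in all 4 lists had a median of 151, so they were not poorer in CpGs than the 25 marked ones, which had 138. The Hoxd8 window held 259 CpGs, the most of the 38, and was covered to at most 42.0%. Inside the clusters as a whole, bases covered in all 4 lists had 32.7 CpGs per kb and 53.3% GC, and bases covered in no list had 16.3 CpGs per kb and 45.0% GC. The same direction held in each cluster, with 36.1 against 22.5 CpGs per kb in HoxA, 29.7 against 14.05 in HoxB, 28.2 against 13.6 in HoxC and 38.7 against 19.4 in HoxD.

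A comparison of the regions was made window by window. The highest and the lowest list lay at least 25 points apart (1 kb of the window) in 10 of the 38 genes, against 9% of all genes. Because most genes had no peak at all, a closer background is the 3168 genes marked in at least 1 list, of which 30.8% reached this difference. Of the 30 Hox genes marked in at least 1 list 33.3% did, a share near that background. In 22 of the 38 genes the lists were less than 10 points apart. The share of all genes was not computed for this count. In the 60.9% of all genes without a covered base in any list, the lists cannot differ.

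The differing genes fell into a few groups. With the window at the outermost start, Hoxb3 and Hoxb4, neighbours that act in the hindbrain and neck, were marked in MGE alone. Hoxb4 was covered to 60.1% in MGE, 14.3% in CGE and 14.2% in LGE, and 14.8% in CTX. For Hoxb3 the values were 58.5%, 26.2%, 27.6% and 35.0%. The start of Hoxb3 nearest the start codon lies 20.4 kb away. At that start Hoxb3 was marked in all 4 lists, with 62.65%, 61.35%, 51.6% and 56.3% in the same order. At the outermost starts MGE stood apart from the other 3 lists at both genes. Both MGE values came partly from 1 MGE peak of 4064 bases that begins at Hoxb4 and covers its gene body. The interval of 5.06 kb between both 5′ ends was covered to 73.8% in MGE and to 2.73%, 3.04% and 1.80% in CGE, LGE and CTX, where the peak at Hoxb4 ended after 523, 518 and 534 bases. That MGE peak was weak, with a fold enrichment of 1.40 and a −log10 q of 2.89, and it is lost when only peaks with a q-value under 0.001 are used.

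Another pair, Hoxd3 and Hoxd4, shared nearly the same window (3998 of its bases), since their outermost annotated starts lie beside each other. Hoxd3 was covered to 100% in MGE, 69.0% in CGE and 61.4% in LGE, and 100% in CTX, and Hoxd4 to 100%, 69.1%, 61.4% and 100%. In MGE and CTX a single peak of 9238 and 9129 bases ran through this place, whereas CGE and LGE had separate peaks there. The lower CGE values held only at this outermost start. The start nearest the start codon lies 33.7 kb away for Hoxd3 and 15.1 kb away for Hoxd4. With the window placed there, Hoxd3 was higher in CTX (93.4%) and CGE (91.2%) than in LGE (64.4%) and MGE (61.35%). Hoxd4 was then lowest in CTX, at 67.3%, and lay between 89.85% and 90.25% elsewhere. Hoxc5, whose outermost start lies beside Hoxc10 and 46.4 kb before the start nearest its start codon, had 91.0% in MGE, 65.2% in CGE and 91.2% in LGE, and 67.6% in CTX, and its window shared 3353 bases with that of Hoxc10. MGE and LGE were the higher lists at this outermost start. At the start nearest the start codon Hoxc5 had 62.3% in MGE, 44.3% in CGE and 42.0% in LGE, and 43.7% in CTX. Hoxc9, a gene of the thoracic spinal cord, was lower in CGE alone, at 69.4% against 100% in the other 3 lists.

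Of the remaining differing genes, Hoxa9, a gene of the trunk that is also active in blood stem cells, was covered to 100% in MGE, 47.3% in CGE and 42.8% in LGE, and 67.6% in CTX. This difference held only at its outermost start. At the start nearest the start codon, 4.9 kb away, Hoxa9 lay between 73.1% and 75.65% in the 4 lists. Hoxb7 had 70.5% in MGE, 43.2% in CGE and 68.8% in LGE, and 100% in CTX. Hoxc13, which acts in hair follicles, had 67.1% in MGE, 100% in CGE and 44.0% in LGE, and 63.8% in CTX. At the outermost start a different list was thus the highest at each of these genes. Hoxb13, a gene of the tail and prostate, was higher in MGE, at 89.98%, than in CGE, LGE and CTX, at 65.6%, 64.2% and 67.7%. With the window on the start nearest the start codon only 6 of the 38 genes differed by at least 25 points (7.47% of all genes).

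Taken over pairs of lists, MGE was at least 25 points above CGE in 8 Hox windows, against 0.708% of all genes, and CGE above MGE in 1, against 3.2%. MGE was above LGE in 6 windows (1.19% of all genes) and LGE above MGE in 0 (1.79%). Between MGE and CTX the counts were 2 (1.65%) and 1 (2.96%). CGE was above LGE in 1 (2.62%) and LGE above CGE in 3 (0.712%). CGE was above CTX in 1 (3.17%) and CTX above CGE in 4 (1.71%), and LGE was above CTX in 0 (1.45%) and CTX above LGE in 3 (2.14%). All these comparisons draw on the same 4 lists. The shares are over all genes, most of which had no peak, and shares among marked genes were not computed for pairs of lists. With lists cut to equal covered bases MGE was above CGE in 8 Hox windows (1.68% of all genes). CGE was then above MGE in 1 (1.74%). MGE was the single highest list in 16 of the 38 windows and LGE the single lowest in 24. Lists tied for the highest in 8 windows. Such counts were not made over all genes, so this order cannot be called particular to the Hox windows. The counts of MGE above CGE share windows and peaks, since Hoxb3 with Hoxb4 and Hoxd3 with Hoxd4 lie under common peaks. With the start nearest the start codon 3 windows were higher in MGE (0.57% of all genes) and 2 in CGE (2.65%). The Hox peaks of MGE, the region with the fewest reads by the study's methods, had a median −log10 q of 12, lower than in CGE (22.3), LGE (19.8) and CTX (23.4). The part of depth in these differences was not tested.

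By position within the cluster, the posterior paralogues (9 to 13, 16 genes) had the highest medians. Their median window was covered to 83.2% in MGE, 71.9% in CGE and 71.5% in LGE, and 73.0% in CTX. The anterior paralogues (1 to 4, 11 genes) had medians of 77.4%, 69.0%, 61.4% and 76.1%, and the central ones (5 to 8, 11 genes) had 60.05%, 59.9%, 63.5% and 64.1%. The posterior group was above the central group in every list, and above the anterior group in all but CTX, where the anterior group was higher. With peaks less than 3 kb apart joined, the central median (100%, mean of the lists) was no lower than the posterior one (99.6%). Of the posterior genes 12 were marked in all 4 lists, compared with 7 anterior and 6 central genes. With the start nearest the start codon the numbers were 15, 8 and 7. In each group the windows spread widely, from 26.2% to 100% among the posterior genes and from 14.2% to 100% among the anterior ones, and neighbouring genes share peaks, so the medians are descriptions only.

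**Figure D3:**
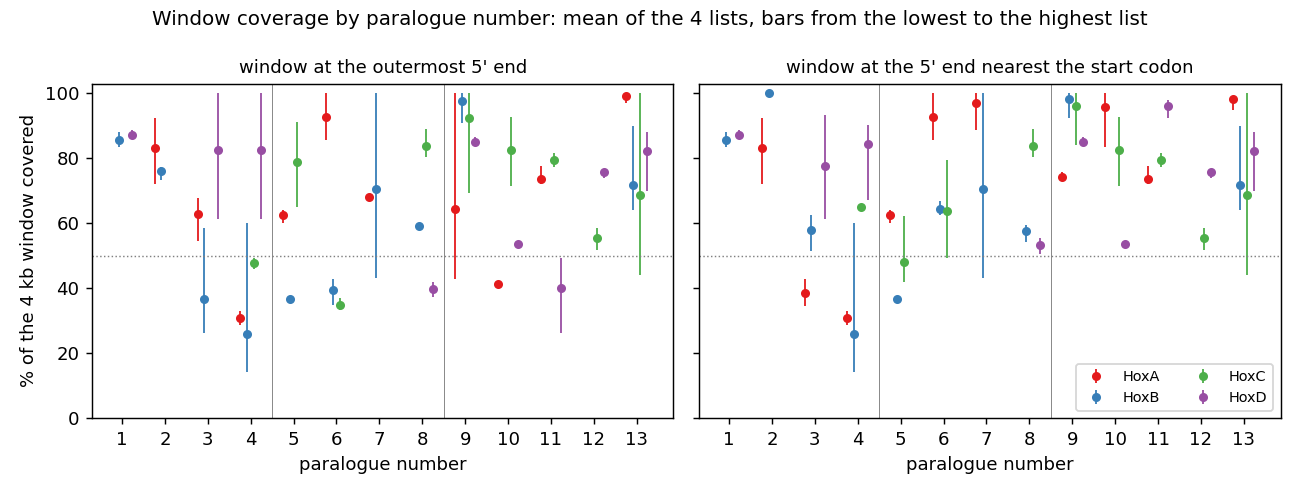
Percent of the 4 kb window covered against paralogue number for the genes of HoxA (red), HoxB (blue), HoxC (green) and HoxD (purple), with points at the mean of the 4 lists and bars from the lowest to the highest list. The left panel uses the outermost annotated 5′ end and the right panel the start nearest the start codon, the dotted line marks 50% and grey lines part the anterior, central and posterior groups. Posterior genes lie almost all above 50% in the right panel, and the paralogue 4 genes of HoxA and HoxB are the lowest in both.

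Among paralogue groups, the 2 genes of group 1 were the most alike, with window means of 85.6% for Hoxb1 and 87.3% for Hoxd1. With the outermost start the 3 genes of group 6 lay furthest apart, from a mean of 34.95% in Hoxc6 to 92.8% in Hoxa6. The 4 genes of group 4 were nearly as far apart, from 25.9% in Hoxb4 to 82.6% in Hoxd4, with 30.9% in Hoxa4 and 47.8% in Hoxc4. With the start nearest the start codon Hoxa4 and Hoxb4 kept these values, while Hoxc4 had a mean of 65.0%. At the outermost start the group 9 genes, which act in the trunk, had means of 64.4% in Hoxa9, 97.7% in Hoxb9, 92.3% in Hoxc9 and 85.2% in Hoxd9.

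The 4 lists agreed closely on which bases of the clusters were covered. Within the spans the base-level Jaccard index, the share of bases covered in both lists among those covered in either, lay between 82.9% (MGE and LGE) and 89.1% (CGE and CTX). For the whole lists it lay between 46.5% (MGE and CTX) and 60.1% (CGE and LGE). Of all bases of the spans covered in at least 1 list, 74.7% were covered in all 4 and 9.91% in a single list, while genome-wide these shares were 33.0% and 38.05%. By cluster, the share covered in all 4 lists was 81.5% in HoxA, 67.3% in HoxB, 73.8% in HoxC and 78.9% in HoxD. MGE supplied 5.61% of the covered span bases alone, more than the 2.42%, 0.967% and 0.909% covered in CGE, LGE or CTX alone.

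The uncovered stretches recurred as well. Between the first and the last listed gene of the clusters, 78 stretches were free of peaks in all 4 lists, with a median length of 1752 bases and a total of 197.1 kb, or 40.6% of the clusters. They made up 92.0% of the bases left uncovered in MGE, 84.3% in CGE and 79.8% in LGE, and 85.2% in CTX. HoxB held the longest, 18135 bases between Hoxb13 and Hoxb9, and 48.8% of that cluster was uncovered in all lists. In HoxA the share was 30.2%, in HoxC 36.8% and in HoxD 41.1%. By definition the 11 genes whose 5′ end lay outside all peaks have it in such a stretch. The stretch was 3076 bases long at Hoxa10, 3450 at Hoxc6 and 2572 at Hoxd11.

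Hox peaks were wide and had small q-values, but their fold enrichment was low. Median fold enrichment, the authors' ratio of signal to local background, was 1.70 in MGE, 1.66 in CGE and 1.73 in LGE, and 1.69 in CTX, compared with 2.99, 2.71, 2.98 and 2.73 over the full lists. These medians stood at percentile 1.98, 2.53, 2.65 and 3.00 of their lists. Above the list's median fold were 0 of 102 Hox peaks in MGE, 1 of 99 in CGE and 2 of 105 in LGE, and 1 of 102 in CTX. By q-value the order was the other way round. Median −log10 q was 12, 22.3, 19.8 and 23.4 in the spans and 3.38, 4.61, 4.21 and 3.81 in the full lists, and 92, 93, 101 and 96 Hox peaks were above the list's median. Hox peaks had a median width of 3356 bases in MGE, 3028 in CGE and 2661 in LGE, and 2901 in CTX, against 1248 to 1445 in the full lists. Low fold was also found where peaks elsewhere were crowded. Peaks outside the Hox spans with over 40% of the surrounding 20 kb under other peaks had a median fold of 1.75 in MGE, 1.70 in CGE and 1.74 in LGE, and 1.67 in CTX, and those with no other peak around them had 3.17, 2.98, 3.24 and 2.96. For the median Hox peak between 42.8% and 48.6% of the surroundings was covered, and the part of a raised local background in the low fold was not tested.

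**Figure D4:**
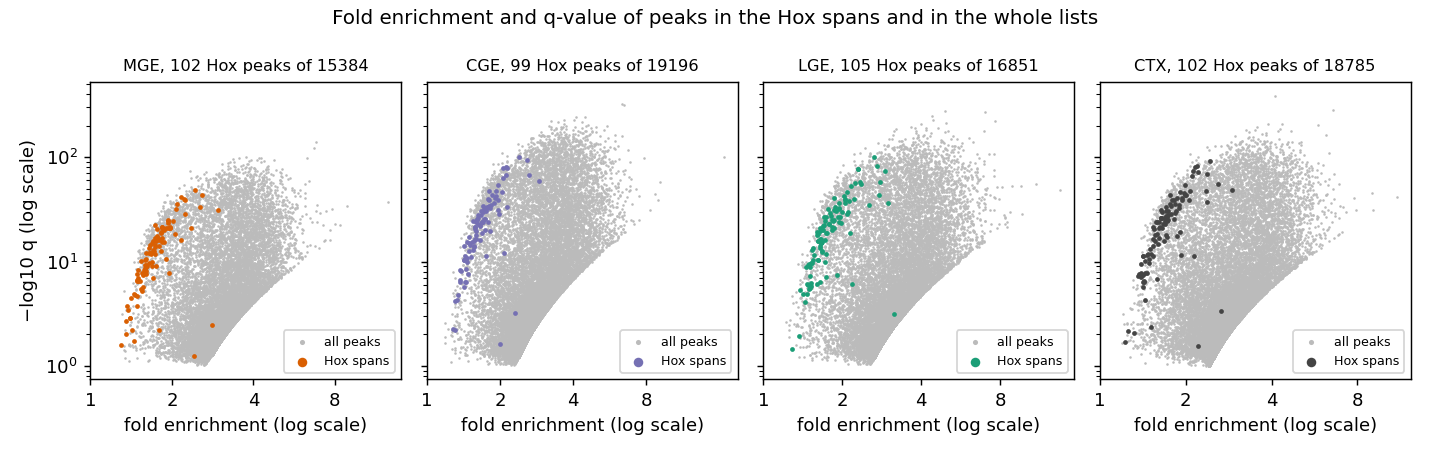
Fold enrichment (x axis, log scale) and −log10 q (y axis, log scale) of every peak in each of the 4 lists (grey) and of the peaks in the Hox spans (coloured). Hox peaks follow the left edge of each cloud, at low fold for their q-value, with medians of 1.66 to 1.73 against 2.71 to 2.99 for the lists.

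Beyond the clusters, coverage fell at different distances. In the 20 kb beyond the posterior end it was 50.2% to 55.8% at HoxA, 43.9% to 54.4% at HoxB, 24.9% to 39.6% at HoxC and 46.8% to 54.3% at HoxD. In the 20 kb beyond the anterior end it was lower in each list of every cluster, at 29.6% to 31.5%, 6.49% to 20.4%, 20.5% to 27.4% and 0%. HoxD thus ended sharply after Hoxd1, with no covered base in any list for 40 kb, whereas its posterior side continued over Evx2. Evx2, a homeobox gene linked to the cluster, was covered to 63.9% in MGE, 92.7% in CGE and 56.0% in LGE, and 59.0% in CTX. On the posterior side of HoxA coverage dropped to between 14.3% and 16.9% at 20 to 40 kb and rose again to between 51.4% and 58.5% at 40 to 60 kb, the step that contains Evx1, whose window was covered to 48.1% in MGE, 48.1% in CGE and 47.0% in LGE, and 47.0% in CTX. HoxC differed in its anterior side, where 40.1% to 44.3% was covered at 20 to 40 kb and at least 19.4% as far as 80 kb.

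**Figure D5:**
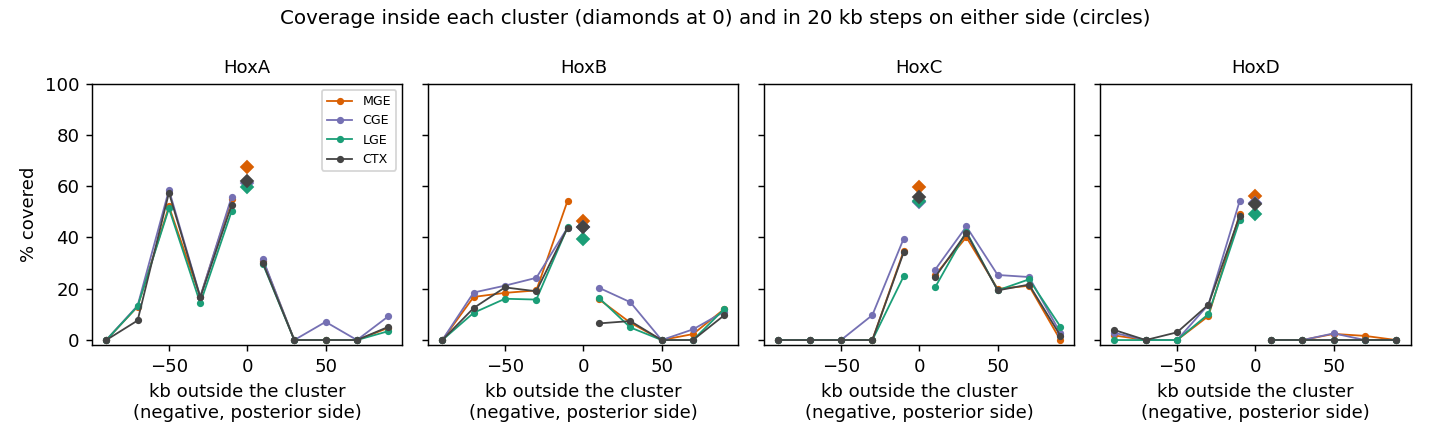
Percent of bases under peaks inside each cluster (diamonds at 0) and in 20 kb steps out to 100 kb on the posterior (negative) and anterior (positive) side (circles at the middle of each step), with 1 colour per list. The 4 lists follow each other closely, HoxD has no coverage on the anterior side for 40 kb, and HoxA has a second rise 40 to 60 kb beyond its posterior end.

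The clusters also hold microRNA genes of the miR-10 and miR-196 families, which target Hox transcripts among others. They were looked at after the values were seen and are shown because members with the same seed differed in coverage. The mature sequences, from RefSeq (GRCm38.p6), carry the seed (bases 2 to 8) in capitals. miR-10a-5p and miR-10b-5p share one seed, and miR-196a-5p and miR-196b-5p share another.
miR-10a-5p: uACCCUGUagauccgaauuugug
miR-10b-5p: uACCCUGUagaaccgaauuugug
miR-196a-5p: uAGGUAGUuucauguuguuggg
miR-196b-5p: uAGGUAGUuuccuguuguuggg
The hairpin of Mir10a, in HoxB beside Hoxb4 (chr11:96317165-96317274, plus strand), was free of peaks in every list. The hairpin of Mir10b, in HoxD (chr2:74726070-74726137, plus strand), was covered to 100% in all 4. In the miR-196 family Mir196a-2 in HoxC and Mir196b in HoxA were covered to 100% in all lists, while Mir196a-1 in HoxB was covered to 100% in MGE, 10.8% in CGE and 100% in LGE, and 83.3% in CTX. The Mir196a-1 hairpin (chr11:96265164-96265265) lay at the edge of a peak found in every list. That peak ended at base 96265174 in CGE, 96265248 in CTX, 96265285 in MGE and 96266040 in LGE. Both HoxB genes thus had less coverage than their relatives in the other clusters in at least 1 list, at Mir196a-1 by a shift of this peak edge.

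Genes that work with or upstream of Hox genes were placed beside them by the same window. Of the 9 TALE homeobox genes, whose products are DNA-binding partners of HOX proteins, 0 were marked in all 4 lists. Meis2 was covered to 51.0% in MGE, 51.0% in CGE and 0% in LGE and CTX, and Pbx3 to 20.6% in MGE, 35.4% in CGE and 26.9% in LGE, and 61.4% in CTX, and the other 7 were marked in no list. Of 5 activators of Hox genes in the hindbrain and trunk 3 were marked in all 4 lists, among them Egr2 (Krox20), with 65.8% in MGE, 83.9% in CGE and 70.2% in LGE, and 84.3% in CTX, and Cdx2, with 55.0% in MGE and 52.4% in the others. All 3 ParaHox genes, the closest relatives of Hox genes outside the clusters, were marked in all 4 lists. Gsx2, a patterning gene of the LGE, was covered to 71.2% in MGE and to 90.3%, 90.2% and 90.6% in CGE, LGE and CTX. Other developmental families had like shares of marked genes in all 4 lists, namely 4 of 6 Iroquois genes, 6 of 9 Pax genes and 3 of 6 Dlx genes, beside 25 of 38 Hox genes and 7.54% of all genes. These shares were not tested against each other.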

How the data were processed

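Each region's list was a broad peak file. Per the labels and the study's methods, the authors aligned reads to GRCm38 (mm10) with Bowtie2, removed blacklisted reads and Picard duplicates, merged the samples of a region and called broad peaks with MACS, whose version and control are not given in the sources used here. The deposited fold enrichment is a ratio to local background and the deposited −log10 values are of q-values, and both served to describe peaks and to set a stricter list. Peaks on 20 chromosomes were analysed with GENCODE M21 genes and Python 3.11.15, and the interval code was tested on simulated data. Coordinates count from 1. Marked means at least 50% of the 4 kb window covered. The members and lists were chosen with earlier results of these data known. The genes given with their 4 values are those under 50% in at least 1 list, those 25 points or more apart, and those at cluster ends. A further gene of the tissue check is not reported here. Neighbouring genes share peaks and are not replicates. Wide peaks depend on how the caller joined nearby signal. Alternatives tried were other windows, thresholds and flanks, lists of equal number or covered bases, a stricter q-value (0.001) and joining of peaks closer than 3 kb.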

Additional observations from a re-analysis of the deposited data

How the results depend on the processing

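No paired analysis was possible because the deposited lists merge the samples of a region, and for the same reason no replicate could be left out in turn. Of the 38 Hox windows, 38 were marked in all 4 lists by any 1 covered base (23.4% of all genes), 2 by at least 90% coverage (0.598%) and 16 over the 2 kb upstream alone (4.72%), instead of 25. At 90% coverage the counts by list were 9 in MGE, 4 in CGE and 5 in LGE, and 7 in CTX. Windows that differ between lists numbered 6 with peaks less than 3 kb apart joined (9.25% of all genes) and 6 with the start nearest the start codon (7.47%). They numbered 8 with q-values under 0.001 (8.55%) and 3 at 50 points, where the share of all genes was not computed. Windows at least 25 points higher in MGE than in CGE numbered 5 with joined peaks (0.804% of all genes) and 3 with the start nearest the start codon (0.57%). Windows higher in CGE numbered 0 with joined peaks (3.48%), 2 upstream (3.29%) and 2 with the nearer start (2.65%). The excess in MGE therefore rests in part on which start is used. The order of the paralogue groups depended on the window. Averaged over lists, the medians of anterior, central and posterior genes were 71%, 61.9% and 74.9%, but 96.4%, 100% and 99.6% with joined peaks and 46.2%, 53.3% and 60.5% upstream, while the posterior median was 80.6% with the nearer start. In 2 groups, paralogues 1 to 8 had 64.7% and 9 to 13 had 74.9%. Coverage of HoxA, HoxB, HoxC and HoxD was 80.4%, 60.2%, 70.9% and 62.8% with joined peaks, 62.6%, 43.5%, 56.0% and 53.0% without flanks and 43.3%, 35.5%, 40.9% and 32.4% with 50 kb flanks, so HoxB was the lowest except with 50 kb flanks, where HoxD was. With q-values under 0.001 HoxB, HoxC and HoxD had 39.6%, 48.4% and 44.4%, HoxB had 40.8% with equal numbers of peaks, and HoxB and HoxC had 40.5% and 48.7% with equal covered bases. The mean Jaccard index within the spans was 85.5%, and 86.4% with q-values under 0.001, 89.4% with joined peaks, 85.6% with equal covered bases and 86.1% without flanks. Read depth differed between the regions, which limits how far weak peaks can be compared, and the lists hold no counts from which to set an interval.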
